A study of Mus musculus with 24 samples.

Results

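The genes described here encode the protein subunits of oxidative phosphorylation in mouse liver, and they are split between the nuclear and the mitochondrial genome. They were chosen by name from the 55335 gene rows of the deposited count table. The rule took protein-coding rows whose symbols begin with Ndufa, Ndufb, Ndufc, Ndufs, Ndufv, Uqcr, Cox4 to Cox8, Atp5, mt-Nd, mt-Co, mt-Atp or mt-Cytb, and added Sdha to Sdhd and Cyc1. It found 109 rows, 96 nuclear-encoded and 13 mitochondrially encoded. Membership followed from name and category alone, but the rule was chosen with earlier results of these data known. Of these, 97 (90 nuclear and 7 mitochondrial) passed the filter on low counts and were tested together with the rest of the 13281 genes kept.

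The RNA was polyA-selected from the livers of 24 female mice, 4 in each of 6 groups, and each replicate is labelled as a separate mouse. Mice were either B6129SF2/J, the wild type (WT), or 3xTg-AD (3xTg). As background, 3xTg-AD is an Alzheimer's disease model in which human tau and APP mutants are driven by a neuronal promoter. Each of 3 diets was given to both genotypes for 6 months, starting at 3 months of age. The control diet had 70% carbohydrate, 20% long-chain triglyceride and 10% protein at 4.1 kcal/g. The ketogenic diet (KD) had no carbohydrate, 90% long-chain triglyceride and 10% protein at 6.7 kcal/g. In the MCT diet, also at 4.1 kcal/g, 10% medium-chain triglyceride (C8:0 and C10:0) took the place of an equal share of the long-chain fat of the control diet.

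Oxidative phosphorylation passes electrons from NADH through complex I, or from succinate through complex II, to ubiquinone, complex III, cytochrome c and complex IV, and the proton gradient that builds up drives ATP synthase, complex V. Complex II is encoded wholly in the nucleus. The other complexes combine many nuclear-encoded subunits with a few hydrophobic ones that are transcribed and translated inside the mitochondrion. In liver the chain reoxidises the NADH and reduced flavins that fatty acid oxidation yields, which is the main route of hepatic energy supply when carbohydrate is scarce.

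Gene counts ranged from 12009432 to 20108831 per library. The 3xTg KD livers stood apart as a group. Their hepatocyte marker transcripts (12 genes, Alb and Apoa1 among them) summed to 90414 to 115436 CPM (counts scaled to a fixed library total, here adjusted by the trimmed mean of M-values, TMM), against 117769 to 203685 in the other groups. Their TMM scaling factors were 1.19 to 1.32, against 0.833 to 1.12 elsewhere. In 6 libraries exocrine pancreas markers exceeded 100 CPM: WT KD livers 1, 2 and 4, WT MCT liver 3, and 3xTg MCT livers 3 and 4, which held 1097 to 19508 CPM. Control and 3xTg KD livers had 5.03 to 29.1 CPM of these markers. Neutrophil markers summed to 73.4 and 73.8 CPM in 3xTg KD livers 2 and 3, against 1.72 to 19.6 CPM in all other livers.

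Per kilobase of exon, the mitochondrially encoded messages exceeded every nuclear-encoded one, for the 7 of 13 that could be counted. Averaged over 24 livers, mt-Co1, the catalytic core of complex IV, had 21654 RPKM (reads scaled by exon length and library total). Then came mt-Cytb, the cytochrome b of complex III, at 14596 RPKM, and the complex I subunits mt-Nd1 at 14406, mt-Nd2 at 13433, mt-Nd5 at 5747, mt-Nd4 at 4614 and mt-Nd6 at 694 RPKM. This order is that of the deposited counts, from polyA-selected RNA and without reads that aligned to several places. The highest nuclear-encoded levels were those of Atp5a1 (314 RPKM), the alpha subunit of ATP synthase, Cox6b1 (295 RPKM), a complex IV subunit on the intermembrane side, and Atp5b (261 RPKM), the catalytic beta subunit. By role, the median level of tested nuclear members was 46.9 RPKM for the 39 genes named for complex I, 96.4 for the 4 of complex II, 111 for the 9 of complex III, 51.4 for 14 of complex IV and 65.5 for 16 of complex V. The 8 complex I assembly factors (the Ndufaf genes), which help to build complex I and are not part of the finished enzyme, had a median of 5.74 RPKM. Roles follow the gene names, so Ndufa4, now regarded as a complex IV subunit, is counted with complex I.

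For 6 of the 13 mitochondrial messages the deposited counts cannot be read as levels. mt-Co2, mt-Co3, mt-Atp6, mt-Atp8, mt-Nd3 and mt-Nd4l had at most 9 counts in any library, while the other 7 averaged 4817 to 452192 counts. Stretches of 50 bases were compared with every other annotated transcript. In mt-Co2 100% of such stretches also occurred elsewhere, in mt-Co3 99.9%, in mt-Atp6 99.5%, in mt-Nd4l 98.8% and in mt-Nd3 98.0%. The copies lie mostly in a row of pseudogenes on chromosome 1 (chr1:24611535-24616197, GRCm38), which also took few counts: Gm28437 held 0 to 844 per library. mt-Atp6, part of the proton channel of ATP synthase, had 9 counts in WT MCT liver 4, 1 count in 6 other livers and 0 in the rest. mt-Atp8 had no shared stretch among annotated transcripts; unannotated genome sequence was not searched. Reads that aligned to several places made up 15.9% to 24.3% of the entries of each library and are in no gene's count. mt-Co1 shared 51.1% and mt-Nd4 62.2% of its stretches, whereas mt-Nd1, mt-Nd6 and mt-Cytb shared none.

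**Figure D1:**
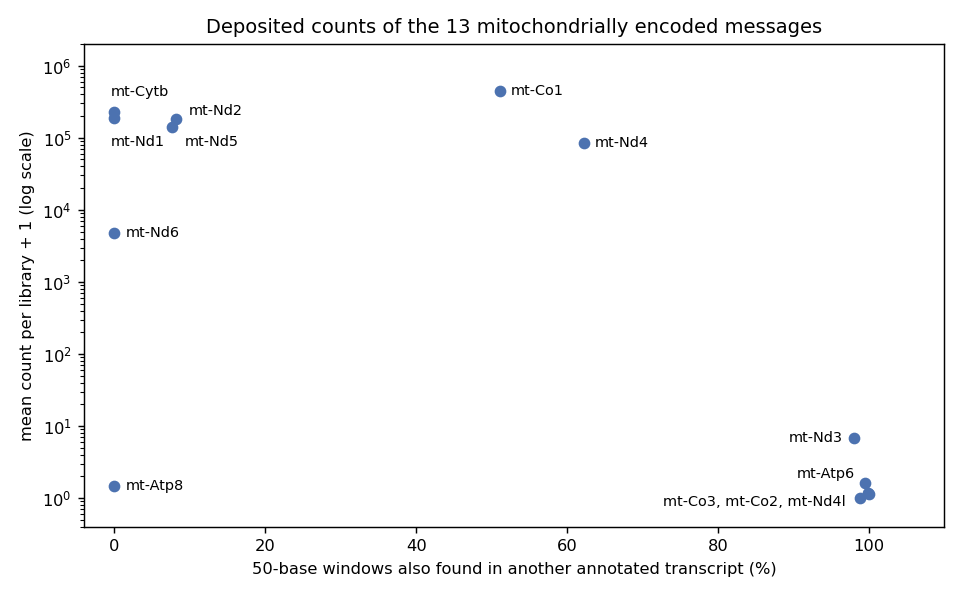
Each point is 1 of the 13 mitochondrially encoded messages, with the share of its 50-base stretches found in another annotated transcript (x, %) against its mean deposited count per library plus 1 (y, log scale). The 5 messages at 98.0% or more, and mt-Atp8, average under 10 counts, and the other 7 average 4817 or more.

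Among the 7 that could be counted, mt-Co1 took the largest mean share in every group and mt-Nd6 the smallest. mt-Co1 took 36.1% of mitochondrial counts on average, mt-Cytb 17.9%, mt-Nd1 14.3%, mt-Nd2 14%, mt-Nd5 10.9%, mt-Nd4 6.49% and mt-Nd6 0.398%. The mean share of mt-Co1 ranged from 34.5% in WT KD livers to 39.5% in 3xTg control livers, and that of single livers from 28.9% to 46.7%. The mean share of mt-Nd6 ranged from 0.325% in 3xTg MCT livers to 0.448% in 3xTg KD livers.

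The summed share of the 13 mitochondrial messages, nearly all of it from the 7 that could be counted, varied widely between livers. Reads that aligned to several places are not in it. Such reads averaged 16.3% of entries in 3xTg KD livers and 19.2% to 22.5% in the other groups, and their part in the share was not tested. In WT control livers 1 to 4 they took 10.3%, 10.5%, 7.22% and 6.71% of gene counts, in WT KD livers 12.2%, 12%, 12% and 8.12%, and in WT MCT livers 7.13%, 12.4%, 14.1% and 9.72%. In 3xTg control livers they took 4.38%, 6.79%, 11.4% and 7.65%, in 3xTg KD livers 6.01%, 5.49%, 5.29% and 5.50%, and in 3xTg MCT livers 10.6%, 10.9%, 15.1% and 7.68%. The 3xTg KD livers were low and close together (5.57% ± 0.31, SD, n = 4), and 19 of the 20 other livers lay above the highest of them, the exception being 3xTg control liver 1. Group means elsewhere were 7.54% ± 2.90 in 3xTg control, 11.1% ± 3.06 in 3xTg MCT and 11.1% ± 1.97 in WT KD livers. The share is a sum over the genes described, so it was given no test. 3xTg control liver 1 had 3.48% unmapped reads, against 1.33% to 1.94% in the other livers. Nuclear-retained RNA (Neat1, Xist and Malat1) summed to 395 to 493 CPM in 3xTg KD livers and to 242 to 1087 CPM over all livers. Neat1 alone was at 8.81 to 14.3 CPM in 3xTg KD livers and 4.86 to 6.01 CPM in other 3xTg livers. It was at 4.11 to 7.76 CPM in WT KD livers and up to 37.4 CPM in WT control livers. The part of these in the share was not tested.

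The nuclear-encoded members moved much less as a whole. They summed to 0.894% to 1.30% of gene counts over the 24 livers, with group means from 1.03% (3xTg MCT) to 1.14% (3xTg KD). Mitochondrial counts per nuclear count averaged 4.94 in 3xTg KD livers, 7.19 in 3xTg control livers, 11.2 in 3xTg MCT livers and 11.0 in WT KD livers. By this plain share the nuclear members of 3xTg KD livers were not low. After TMM scaling they were, since the typical gene of those livers took a larger share of counts than in other groups. Scaled by library size alone, the median of all tested genes was 0.31 higher (log2) in KD than control 3xTg livers, and that of the nuclear members 0.07 higher. Log2 differences below therefore have the median over the tested genes of the same comparison subtracted; after TMM scaling that median is 0.01 for KD against control 3xTg livers.

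**Figure D2:**
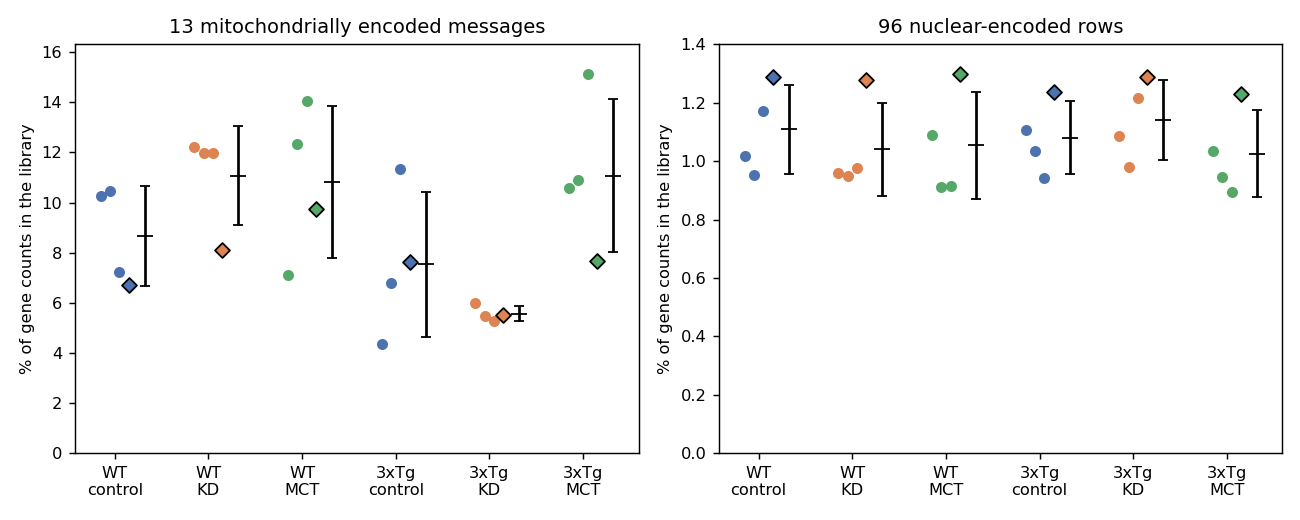
Points are single livers by group, with mean and SD beside them: the share of gene counts taken by the 13 mitochondrially encoded messages (left, %) and by the 96 nuclear-encoded rows (right, %); diamonds mark replicate number 4. The 4 3xTg KD livers sit between 5.29% and 6.01% for the mitochondrial share, and number 4 has the highest nuclear share in each of the 6 groups. Reads that aligned to several places are in neither share.

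The ketogenic diet was first compared with the control diet within 3xTg mice. In this comparison 8 of the 97 tested members were called at an adjusted p under 0.05 (edgeR's quasi-likelihood test, Benjamini-Hochberg over all 13281 genes), and all 8 were lower on KD. They are nuclear-encoded: 5 of complex I (Ndufb5, Ndufa6, Ndufa8, Ndufv3, Ndufv2), Uqcrh of complex III, and Atp5h and Atp5o of complex V. That is 8.25% of members called lower, beside 2.54% of all tested genes called lower and 5.39% called in either direction. In 21 members the 4 KD livers lay wholly below the 4 control livers, beside 6.15% of all genes, and in none wholly above. Of the 90 nuclear members, 75 lay below the median of all genes, and their own median was -0.24; scaled by library size alone, before that median is subtracted, it was 0.07. Bulk tissue cannot tell fewer cells of a type from less RNA per cell, and hepatocyte markers were lower in the same 3xTg KD livers; the part of that difference in these results was not tested.

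Uqcrh (chr4:116066965-116075071) encodes the hinge subunit of complex III, which sits against cytochrome c1. Its level was 149.8, 139.6, 145 and 155 CPM in 3xTg KD livers 1 to 4 and 259, 219.8, 241 and 223 CPM in 3xTg control livers. In WT livers it was 251, 217, 186 and 219.6 CPM on the control diet and 275, 241, 245 and 181 CPM on KD. The 3xTg KD livers were thus below all other livers shown, with a narrow spread of their own. The difference from 3xTg control livers was -0.69 ± 0.12 (SE, log2; adjusted p = 0.00168).

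Among complex I genes, Ndufb5 (chr3:32736990-32751566), a subunit of the membrane arm, measured 69.5, 59.6, 65.8 and 73.2 CPM in 3xTg KD livers against 109.7, 90.6, 93.4 and 97.5 CPM in control livers. The groups did not overlap, and the difference was -0.56 ± 0.11 (adjusted p = 0.00556). Ndufa6 (chr15:82350140-82354322), an accessory subunit of the matrix arm, measured 81.0, 63.9, 88.8 and 84.6 CPM against 118, 123, 141 and 144 CPM. It was likewise lower in every KD liver, by -0.73 ± 0.16 (adjusted p = 0.00935). Ndufa8 (chr2:36036326-36049406), an accessory subunit facing the intermembrane space, measured 51.7, 40.3, 44.8 and 62.5 CPM against 87.6, 71.7, 75.3 and 99.1 CPM (-0.76 ± 0.17, adjusted p = 0.0119). Ndufv2 and Ndufv3 belong to the module that oxidises NADH, where Ndufv2 carries an iron-sulphur cluster. Ndufv2 (chr17:66078638-66101559) measured 112, 109, 114 and 124 CPM against 139, 149, 151 and 155 CPM, a small but even difference of -0.38 ± 0.11 (adjusted p = 0.0480). Ndufv3 (chr17:31520115-31531331) measured 52.2, 47.4, 40.9 and 59.8 CPM against 96.7, 81.8, 79.4 and 71.6 CPM (-0.73 ± 0.21, adjusted p = 0.0423).

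Both complex V genes called here, Atp5h and Atp5o, encode parts of the peripheral stalk that holds the catalytic head of ATP synthase still while the rotor turns. Atp5h (chr11:115415689-115419962) was at 69.6, 62.6, 63.6 and 79.5 CPM in 3xTg KD livers and at 135, 100.2, 101 and 103 CPM in 3xTg control livers. The groups did not overlap (-0.68 ± 0.15, adjusted p = 0.0100). Atp5o (chr16:91925214-91931687) was at 32.8, 28.1, 36.4 and 48.3 CPM against 69.0, 60.4, 58.5 and 62.2 CPM (-0.79 ± 0.20, adjusted p = 0.0268). The table holds another row named Atp5o, which overlaps this gene and had 0 counts in every library.

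The single catalytic or core gene described for each of complexes I, II, III and V did not pass the test in that comparison. This does not hold for every such gene, since Ndufv2, which carries an iron-sulphur cluster, was called lower. Ndufs1, the largest core subunit of complex I, measured 191, 161, 157 and 159 CPM on KD and 148, 165, 161 and 130.5 CPM on the control diet (0.13 ± 0.14, adjusted p = 0.635). Sdha, the flavoprotein of complex II, measured 489, 456, 429 and 456 CPM against 506, 483, 419 and 425 CPM (-0.02 ± 0.11, adjusted p = 0.994). Uqcrfs1, the Rieske iron-sulphur protein of complex III, measured 214, 187, 213 and 224 CPM against 194, 185, 161 and 204 CPM (0.16 ± 0.14, adjusted p = 0.574). In all of these the ranges overlapped. Atp5b measured 1015, 901, 958 and 1075 CPM against 1274, 1143, 908 and 1089 CPM, also overlapping (-0.17 ± 0.14, adjusted p = 0.590). Sdha lay between 392 and 529.6 CPM in all 24 livers. For complex IV, Cox4i1 was not called in that comparison either, with means of 178 RPKM on KD and 232 RPKM on the control diet.

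None of the 7 mitochondrial messages was called between KD and control diet in 3xTg livers, and all 7 had lower means on KD, with a median difference of -0.74. mt-Nd1 (chrM:2751-3707), a core membrane subunit of complex I, measured 6477, 4668, 5464 and 6630.1 CPM on KD and 5331, 9115, 18593 and 12198 CPM on the control diet. Control livers thus spread widely, and liver 1 fell inside the KD range; the difference was -0.97 ± 0.35 (adjusted p = 0.123). mt-Co1 (chrM:5328-6872) measured 18750.1, 16346, 14288 and 16336 CPM against 21046, 26864, 39490.1 and 26563 CPM, without overlap but short of the threshold (-0.81 ± 0.30, adjusted p = 0.140). The median of the 7 rests on single control livers: it was -0.37 without 3xTg control liver 3 and -0.93 without liver 1.

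The 8 calls depended on which livers entered. Leaving out 3xTg KD livers 2 and 3, in which neutrophil markers were high, left 0 members called, with 2 KD livers remaining; Uqcrh then had an adjusted p of 0.0663. With library size scaling alone, Uqcrh was the only member called. Shares of all genes for these counts are not given.

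**Figure D3:**
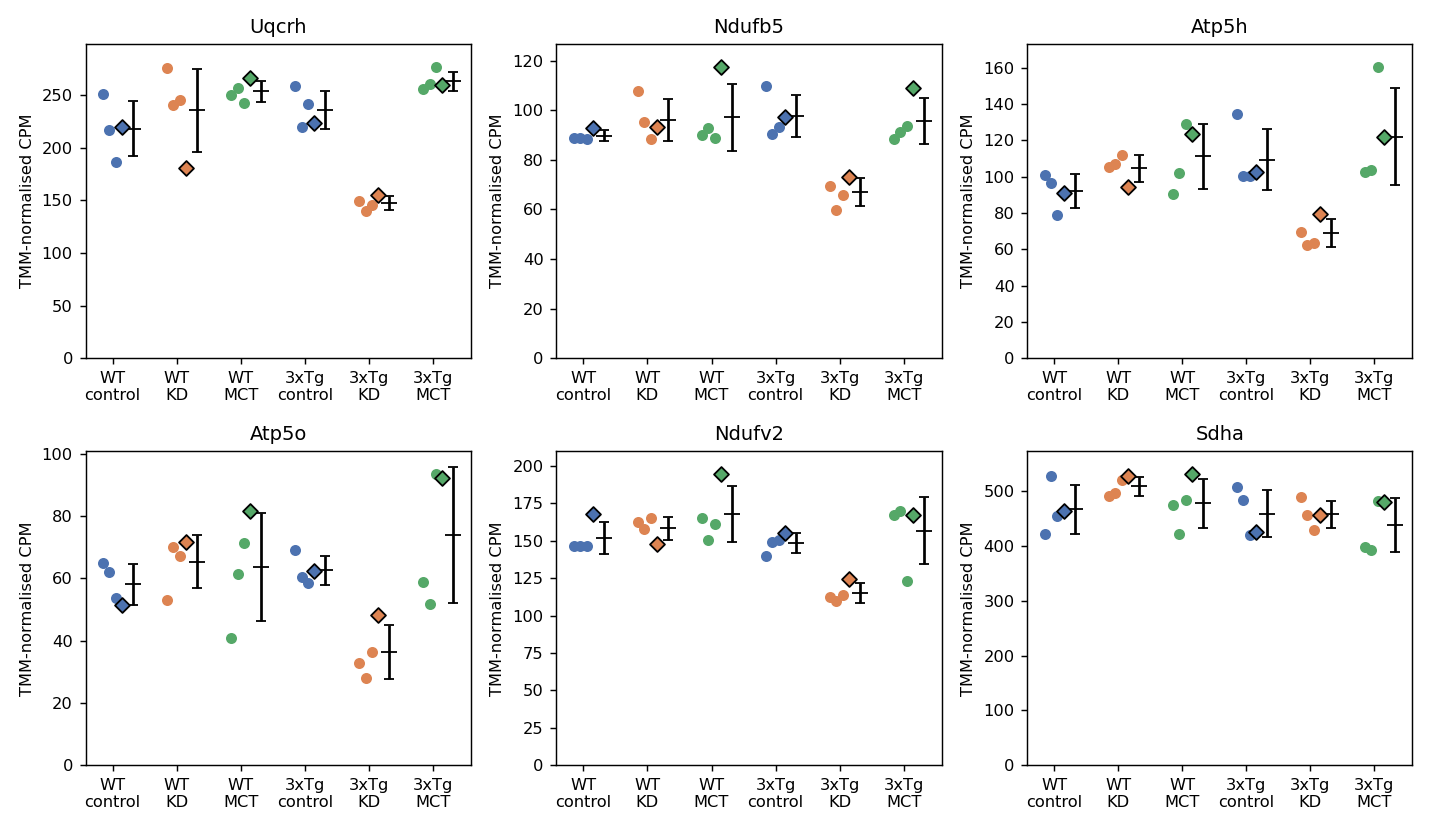
TMM-normalised CPM of the 5 members called in all 3 comparisons that involve 3xTg KD livers, and of Sdha, which was called in none, for each liver by group (points; diamonds are replicate number 4) with mean and SD. The 3xTg KD livers lie between 139.6 and 155 CPM for Uqcrh and between 59.6 and 73.2 CPM for Ndufb5, below every other liver, while Sdha ranges from 392 to 529.6 CPM over the 24 livers.

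The second comparison within 3xTg mice set KD against the MCT diet. Here 28 members were called, all lower on KD: 21 nuclear genes (23.3% of 90) and all 7 tested mitochondrial messages, beside 4.43% of all tested genes called lower and 8.02% in either direction. The nuclear members had a median of -0.32 (0.12 by library size alone, before the median of all genes is subtracted) and the mitochondrial ones -1.39. In 25 members the KD livers lay wholly below the MCT livers, beside 6.46% of all genes. The direction of the calls depends on the scaling. By library size alone the median of all genes was 0.43 higher on KD, and 11 members were called higher and 8 lower. The share of all genes called under that scaling is not given, so these counts cannot be read as particular to the members.

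Complex I contributed 12 of 39 genes, with a median of -0.44 over the 39. They were Ndufa1, Ndufa5, Ndufa6, Ndufa8, Ndufa12, Ndufb4, Ndufb5, Ndufb9, Ndufb10, Ndufs6, Ndufv2 and Ndufv3. Ndufa5, an accessory subunit of the matrix arm, measured 35.9, 32.5, 34.5 and 43.0 CPM on KD and 50.3, 63.2, 61.3 and 49.7 CPM on MCT. The groups did not overlap (-0.61 ± 0.14, adjusted p = 0.00796). Ndufs6, a zinc-binding accessory subunit, measured 42.6, 39.9, 45.7 and 55.1 CPM against 53.8, 58.7, 123 and 86.7 CPM. MCT livers 3 and 4 were far above livers 1 and 2, and liver 1 fell below the highest KD liver (-0.80 ± 0.20, adjusted p = 0.0168). Ndufb10, of the membrane arm, measured 75.3, 71.2, 77.6 and 103 CPM against 116, 95.5, 142 and 157 CPM, with KD liver 4 above MCT liver 2 (-0.64 ± 0.17, adjusted p = 0.0195). Ndufb9 likewise overlapped by 1 MCT liver, at 46.9, 45.6, 57.9 and 70.0 CPM against 78.6, 59, 131 and 113 CPM (-0.79 ± 0.21, adjusted p = 0.0227). Ndufa12, near the NADH-oxidising module, measured 21, 17.2, 14.8 and 19.9 CPM against 28.9, 25.8, 48.2 and 28.2 CPM and did not overlap (-0.84 ± 0.20, adjusted p = 0.0124). Ndufb4 was counted low in all livers, with 4.12, 5.75, 3.95 and 3.96 CPM against 7.1, 7.62, 18.6 and 5.76 CPM; the lowest MCT liver was barely above the highest KD liver (-1.12 ± 0.32, adjusted p = 0.0320). Ndufa1, a small membrane subunit, measured 34.4, 33.6, 45.8 and 47.2 CPM against 46.8, 53.2, 62.4 and 64.5 CPM (-0.49 ± 0.14, adjusted p = 0.0347).

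Complex III contributed Uqcrh and Uqcrb. Uqcrh measured 256, 261, 277 and 259 CPM on MCT, all far above the highest KD liver at 155 CPM (-0.83 ± 0.12, adjusted p = 0.000266). Uqcrb, a small matrix-side subunit, measured 73.2, 79.0, 64.6 and 68.4 CPM on KD against 109.6, 118, 197 and 81.6 CPM on MCT, and only liver 4 of the MCT group came near the KD range (-0.82 ± 0.21, adjusted p = 0.0175).

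Complex IV contributed Cox4i1, Cox5b, Cox6b1 and Cox7a2. Cox4i1, its largest nuclear-encoded subunit, measured 267, 237, 276 and 327 CPM on KD and 389, 307, 402 and 486 CPM on MCT, with liver 4 of KD above liver 2 of MCT (-0.51 ± 0.15, adjusted p = 0.0411). Cox6b1 measured 175, 163, 167 and 201 CPM against 236, 211, 277 and 276 CPM without overlap (-0.50 ± 0.14, adjusted p = 0.0244). Cox5b, on the matrix side, measured 39.8, 37.9, 35.9 and 44.1 CPM against 56, 42.2, 74.3 and 63.6 CPM, with MCT liver 2 inside the KD range (-0.57 ± 0.16, adjusted p = 0.0255). Cox7a2 measured 97.8, 82.3, 106 and 112 CPM against 141, 151, 127 and 188 CPM without overlap (-0.60 ± 0.17, adjusted p = 0.0277). Complex V contributed Atp5h (-0.82 ± 0.15, adjusted p = 0.00214), Atp5o (-1.01 ± 0.20, adjusted p = 0.00441) and Atp5k, subunit e of the membrane part (-0.65 ± 0.19, adjusted p = 0.0317). Atp5h measured 103, 104, 160.3 and 122 CPM on MCT, so all 4 livers exceeded the KD range of 62.6 to 79.5 CPM.

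All 7 mitochondrial messages passed the test in this comparison. mt-Nd1 measured 14428, 15158, 28423 and 12118 CPM on MCT, above every KD liver (-1.59 ± 0.36, adjusted p = 0.00955). mt-Co1 measured 43206, 45126, 52417 and 32221 CPM on MCT (-1.39 ± 0.31, adjusted p = 0.00821). mt-Nd2 differed most, by -1.71 ± 0.43 (adjusted p = 0.0173), from 19725 ± 11345 CPM on MCT to 5994 ± 684 CPM on KD (SD, n = 4), and MCT liver 3 alone held 36387 CPM. mt-Cytb (chrM:14145-15288) measured 9236, 8889.9, 8197 and 7931 CPM on KD and 18827, 22770.2, 27469 and 13209 CPM on MCT, without overlap (-1.26 ± 0.33, adjusted p = 0.0201). mt-Nd4, mt-Nd5 and mt-Nd6 differed by -1.59, -1.26 and -0.99, and only mt-Nd6 overlapped.

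MCT livers 3 and 4 are among the libraries with pancreas transcripts (3343 and 9409 CPM). Without all 6 such libraries 4 members were called (Ndufa6, Ndufv2, Uqcrb and Uqcrh), no mitochondrial message among them, while the medians were -0.22 (nuclear) and -1.36 (mitochondrial). Without KD livers 2 and 3 Uqcrh alone was called, with medians of -0.25 and -1.27. Leaving out KD liver 1, 2 or 3 gave 17, 17 and 11 calls, and leaving out MCT liver 3 gave 12. These fits have no share of all genes beside their counts.

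**Figure D4:**
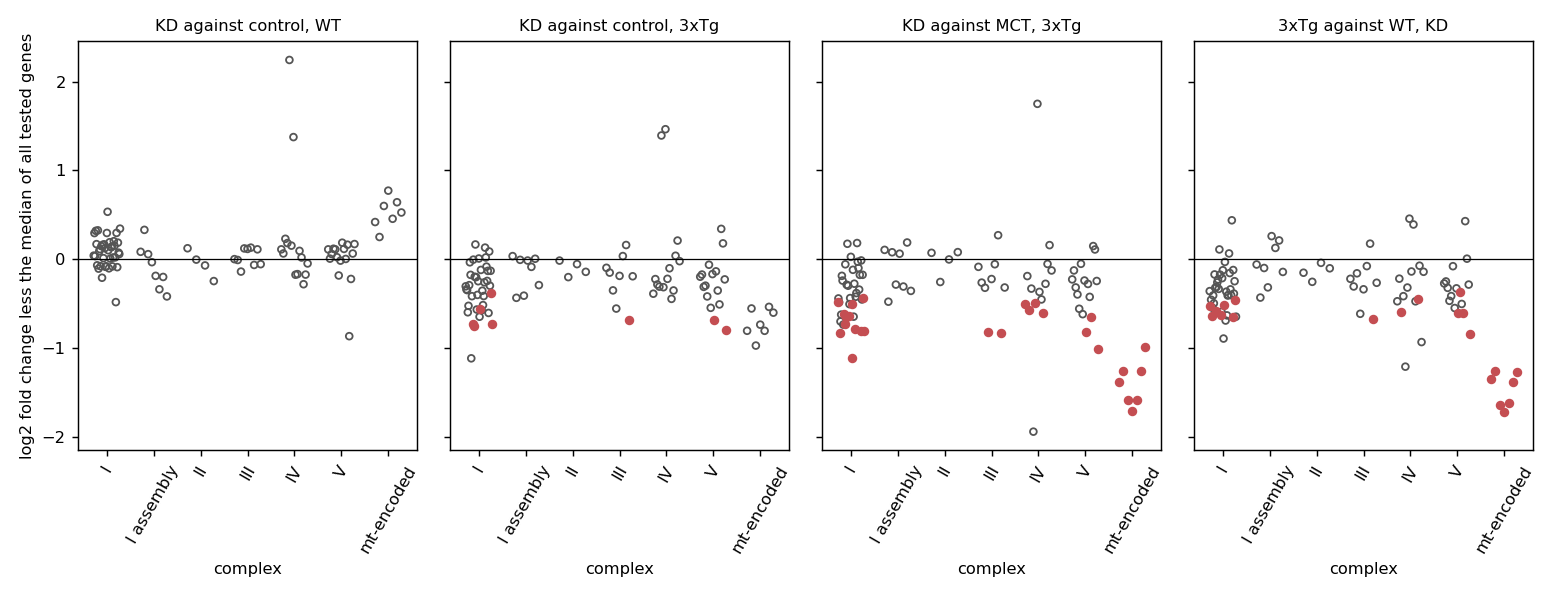
Each point is a tested member, placed by role (x) and by its log2 difference after subtracting the median over tested genes (y), for KD against control in WT livers (leftmost) and for the 3 comparisons that involve 3xTg KD livers; filled points were called at an adjusted p under 0.05. No point is filled in WT livers, the mitochondrially encoded members have medians of 0.53, -0.74, -1.39 and -1.39 from left to right, and no member of complex II or of the assembly factors was called; with library size scaling and no subtraction of the median the nuclear medians are -0.08, 0.07, 0.12 and 0.10.

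The genotypes were compared on each diet. On KD, 21 members were called lower in 3xTg than in WT livers and 0 higher after TMM scaling: 14 nuclear genes (15.6% of 90) and all 7 mitochondrial messages, beside 4.22% of all tested genes called lower and 8.49% in either direction. The medians were -0.32 (nuclear; 0.10 by library size alone, before the median of all genes is subtracted) and -1.39 (mitochondrial). In 37 members the 3xTg livers lay wholly below the WT livers, beside 6.89% of all genes. By library size alone, 8 members were called higher and 7 lower, and Uqcrh was not called (adjusted p = 0.0951). Again no share of all genes under that scaling stands beside these counts. The 3xTg KD livers also served in both diet comparisons above, so the 3 sets of calls are not independent, and their values stand side by side only. Called in all 3 were Uqcrh, Ndufb5, Ndufv2, Atp5h and Atp5o, and 24 nuclear members were called in at least 1.

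Ndufb5 measured 108, 95.3, 88.2 and 93.1 CPM in WT KD livers, above every 3xTg KD liver (-0.52 ± 0.11, adjusted p = 0.00577). Uqcrh differed by -0.68 ± 0.12 (adjusted p = 0.00104), and Ndufa5 by -0.58 ± 0.14 (adjusted p = 0.0105), from 62.1, 55.9, 51.1 and 49.4 CPM in WT KD livers. Ndufa10, a matrix-facing subunit of the membrane arm, was called only here, at 153, 126, 118 and 139 CPM in 3xTg and 178, 203, 210.0 and 183 CPM in WT livers (-0.53 ± 0.15, adjusted p = 0.0306). Atp5j, coupling factor 6 of the peripheral stalk, was at 148, 139, 146 and 137 CPM in 3xTg against 205, 182, 194 and 155 CPM in WT livers, with all 4 WT livers higher (-0.37 ± 0.10, adjusted p = 0.0321). Cox7a2l, which joins complexes III and IV into supercomplexes, was at 33.3, 33.4, 34.8 and 35.7 CPM against 40.3, 48.0, 53.9 and 45.3 CPM (-0.45 ± 0.12, adjusted p = 0.0190).

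mt-Nd1 measured 19106, 21366, 20814 and 11299 CPM in WT KD livers, so that even the low liver 4 was above every 3xTg KD liver (-1.64 ± 0.36, adjusted p = 0.00738). mt-Co1 measured 47927, 43687, 45574 and 29626 CPM in WT KD livers (-1.35 ± 0.31, adjusted p = 0.00923). mt-Nd6, the only message here read from the opposite strand of the mitochondrial genome, measured 230.3, 234, 177 and 170.0 CPM in 3xTg and 590.1, 539.6, 505 and 316 CPM in WT livers (-1.27 ± 0.27, adjusted p = 0.00627). In all 7 messages the groups did not overlap.

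WT KD livers 1, 2 and 4 carried pancreas transcripts (1097, 17436 and 4345 CPM), and the 3xTg KD livers did not. Without the libraries that carried them the WT KD group is liver 3 alone, assumed to vary like the other groups. Uqcrh was then called lower and Ndufs5 higher, and no other member was called. Without 3xTg KD livers 2 and 3 Uqcrh was the only call. Leaving out WT KD liver 2 or 3 gave 11 and 12 calls, and leaving out 3xTg KD liver 2 or 3 gave 9 each. Here too the shares of all genes are not given.

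A direct test of whether the KD response differed between genotypes called no member, beside 0.00753% of all tested genes (1 gene). At an unadjusted p under 0.05, 34 of 97 members had a more negative KD response in 3xTg livers and 0 a more positive one, where 6.75% of all genes passed in the negative direction and 14.6% in either. DESeq2 called 6 members in this test: Uqcrh, Ndufb5, Atp5h, Ndufv3, mt-Co1 and mt-Nd1. The share of all genes that DESeq2 called is not given here, so these 6 cannot be set against the edgeR share. Uqcrh had the smallest edgeR p, with a difference between responses of -0.80 ± 0.16 (adjusted p = 0.0584). It was followed by Ndufb5 (-0.66 ± 0.16, adjusted p = 0.0881) and Atp5h (-0.86 ± 0.21, adjusted p = 0.0928). WT KD livers 1, 2 and 4, which carried pancreas transcripts, entered this test of the KD response. The difference in MCT response called no member in edgeR either, beside 0% of all genes, and none passed an unadjusted p of 0.05, where 2.16% of all genes did; DESeq2 called none.

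In WT livers KD against control diet called no member in edgeR or DESeq2, beside 0.648% of all genes in edgeR. The nuclear median was 0.06 and the mitochondrial median 0.53, with mt-Nd2 at 14193, 17872, 7781 and 6599 CPM on the control diet and 20508, 24764, 24407 and 9627 CPM on KD, overlapping ranges. At an unadjusted p under 0.05 there were 1 higher and 1 lower member, where 12.3% of all genes passed. KD livers lay wholly above control livers in 4 members, beside 3.55% of all genes. Ndufb3, a membrane-arm subunit of complex I, measured 51.7, 54.7, 52.2 and 50.9 CPM on KD and 40.0, 45.1, 35.7 and 49.9 CPM on the control diet, without overlap (0.29 ± 0.11, adjusted p = 0.239). Ndufaf6, an assembly factor, measured 8.58, 10.7, 10.5 and 8.48 CPM against 12.3, 10.7, 12.1 and 13.3 CPM (-0.34 ± 0.13, adjusted p = 0.279). WT KD livers 1, 2 and 4 carried pancreas transcripts (1097, 17436 and 4345 CPM), which summed to at most 16.7 CPM in WT control livers. Without those 3 livers the WT KD group is liver 3 alone.

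The MCT diet against control called no member in either genotype, beside 0% of all genes. At an unadjusted p under 0.05, 1 member was higher and 1 lower in WT livers, and 4 were higher and 0 lower in 3xTg livers, mt-Nd2, mt-Cytb and mt-Nd4 among the 4, where 6.05% and 6.44% of all genes passed. The mitochondrial median was 0.40 in WT and 0.70 in 3xTg livers. KD against MCT in WT livers called none (0.181% of all genes; 0 higher and 2 lower at an unadjusted p under 0.05, where 7.24% of all genes passed). 3xTg against WT called none on the control diet (1.86%; 2 higher and 1 lower unadjusted, beside 11.9%) or on MCT (1.74%; 1 higher and 2 lower unadjusted, beside 10.9%); DESeq2 called none in these 5 comparisons. On the control diet the nuclear median between genotypes was -0.02 and the mitochondrial one -0.22.

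Cox7c, a small subunit of complex IV, was the member with the smallest p between genotypes on the control diet. It measured 2.22, 2.44, 1.49 and 4.38 CPM in 3xTg and 4.76, 4.39, 7.30 and 10.0 CPM in WT control livers, without overlap, but did not pass the test (-1.33 ± 0.44, adjusted p = 0.151). On KD it measured 2.17, 1.80, 4.71 and 3.59 CPM against 4.47, 3.36, 6.29 and 9.34 CPM, and on MCT 2.42, 2.91, 1.16 and 4.44 CPM against 3.70, 4.00, 5.40 and 11.8 CPM. These ranges overlap, and neither difference was called (adjusted p = 0.197 and 0.261). Set side by replicate number, the 3xTg liver was the lower in every case on all 3 diets. The labels do not pair the livers. Cox7c shares 23.0% of its 50-base stretches with other transcripts.

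Calls were also counted by role. Over the 3 comparisons that involve 3xTg KD livers, in which 2.54%, 4.43% and 4.22% of all genes were called lower, complex I had 5, 12 and 7 of 39 members called, complex III 1, 2 and 1 of 9, complex IV 0, 4 and 2 of 14, and complex V 2, 3 and 4 of 16. Complex II had 0 of 4 and the assembly factors 0 of 8 in each, numbers too small to set against those shares. The medians of complex II were -0.10, 0.03 and -0.13, and those of the assembly factors -0.05, -0.11 and -0.08. Whether these roles differ from complex I was not tested.

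Genes around the complexes were described from lists of known members, chosen with earlier results of these data known. In KD against control 3xTg livers, 9 of 77 tested mitochondrial ribosomal protein genes, which translate the mitochondrial messages, were called lower and 0 higher (11.7%, beside 2.54% of all genes called lower), with a median of -0.17 over the list. Mrpl30 was at 32.7 ± 3.1 CPM on KD and 48.2 ± 3.8 CPM on the control diet (SD, n = 4; -0.57, adjusted p = 0.00358). Mrpl51 was at 25.9 ± 2.2 against 41.4 ± 4.2 CPM (-0.69, adjusted p = 0.00520). Mrpl15 and Mrpl48 differed by -0.50 and -0.72. In KD against MCT this list had 9 lower and 0 higher, beside 4.43% of all genes called lower. In 3xTg against WT on KD it had 6 lower and 1 higher (Mrpl9, 0.58), beside 4.22% of all genes called lower.

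Genes that maintain and transcribe mitochondrial DNA (18 tested, Tfam and Polrmt among them) had 0 called in KD against control 3xTg livers, with a median of 0.08, and 1 higher in each of the other 2 comparisons: the nuclease Mgme1 against MCT (0.59) and the transcription factor Mterf3 against WT (0.63). Of 19 mitochondrial RNA processing genes none was called in these 3 comparisons. Of 9 nuclear regulators only Ppara, a receptor that drives fatty acid oxidation, was called, higher on KD than control diet in 3xTg livers (186 ± 16 against 140.2 ± 23.1 CPM, 0.40, adjusted p = 0.0494). Of assembly factors outside the name rule, 1 of 9 for complex I was called higher in that comparison (Tmem186, 0.55), and so was 1 of 36 for complexes II to V (Cox15, which makes haem A for complex IV, 0.46), beside 2.85% of all genes called higher. Against MCT, 3 of the 36 were called higher and 1 lower (Pet100, -0.59). From the complex I list Tmem186 (0.57) and Foxred1 (0.66) were called higher there. Beside these, 8.02% of all genes were called in either direction and 4.43% lower. In 3xTg against WT on KD the called genes of these lists were Tmem186 (0.50), Cox15 (0.48) and Cox18 (1.15), all higher. There 8.49% of all genes were called in either direction and 4.22% lower.

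In the citric acid cycle list (14 tested) citrate synthase, Cs, was lower on KD than control diet in 3xTg livers, at 78.8 ± 8.4 against 123 ± 17.5 CPM (-0.66, adjusted p = 0.00343), and Suclg1, of succinyl-CoA synthetase, was higher (0.42, adjusted p = 0.0217). Among 20 carriers and electron transfer genes, Etfdh, which passes electrons from fatty acid oxidation to ubiquinone, rose from 207 ± 24.6 to 384 ± 43.6 CPM (0.88), and the uncoupling protein gene Ucp2 from 25.8 ± 2.5 to 79.96 ± 25.9 CPM (1.62). Lower on KD were Cyb5r3 (-1.36), Vdac1 (-0.40) and Vdac2 (-0.52), the last 2 of which form pores of the outer membrane. The 3xTg control livers themselves differed from WT control livers in 2 of these genes: Etfdh was lower, at 207 ± 24.6 against 292 ± 48.4 CPM (-0.49, adjusted p = 0.0413), and Cyb5r3 was higher, at 391 ± 46.5 against 210.2 ± 11.7 CPM (0.90, adjusted p = 0.0158). Ucp2 was the only gene of all these lists called between KD and control diet in WT livers, at 73.7 ± 28.3 against 21.6 ± 3.7 CPM (1.77, adjusted p = 0.00243).

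Several complex IV subunits have paired genes with a liver form and a muscle, testis or lung form. The liver forms dominated in every library. Cox6a1 was at 81.8 to 195 CPM and its muscle counterpart Cox6a2 at 0 to 2.54 CPM. Cox7a2 was at 82.3 to 188 CPM and Cox7a1 at 0.390 to 3.49 CPM, Cox8a at 42.9 to 120 CPM and Cox8b at 0 to 2.70 CPM, and Cox4i1 at 237 to 486 CPM and Cox4i2 at 0 to 0.344 CPM. The livers with most Cox6a2 were 3xTg MCT liver 4 (2.54 CPM) and WT KD liver 4 (1.80 CPM), whose skeletal muscle markers summed to 357 and 219 CPM, where 14 of 24 livers had at most 31.2 CPM; the part of muscle RNA in these values was not tested. Cox6b2, the testis form beside Cox6b1, measured 2.66, 4.91, 8.80 and 10.9 CPM in 3xTg KD livers and 3.24, 2.51, 1.72 and 2.36 CPM in 3xTg control livers, and was not called (1.46 ± 0.84, adjusted p = 0.365). Ndufa4 was at 157 to 294 CPM and Ndufa4l2 at 0.169 to 1.16 CPM.

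Binding motifs of factors known to act on genes of the respiratory chain were searched in the 250 bases before the RefSeq start of 72 of the 90 tested nuclear members. The letters CCGGAAG, bound by ETS factors, occurred on either strand in 19.4% of these 72 genes, beside 7.83% of all 27025 genes with a window. The 27025 include genes that did not pass the filter on low counts, which the members did, so the shares are of unlike sets. The palindromic NRF1 motif occurred in 5.56% beside 0.877%, and the YY1 motif in 1.39% beside 0.359%. The ETS letters were found for 4 of 21 members called in any comparison and for 10 of 51 members not called. Of the 5 members called in all 3 comparisons, Uqcrh and Atp5h held them and Atp5o, Ndufb5 and Ndufv2 did not, which says only that these letters are not in those windows. The windows of Uqcrh (chr4:116075071-116075320, minus strand) and Atp5h (chr11:115419920-115420169, minus strand) are shown from RefSeq on GRCm38.p6 because both genes were low in 3xTg KD livers. They place the same letters in sequence of unlike composition, at 45.6% and 69.6% G and C. Capitals mark the ETS letters, here on the opposite strand, 10 and 38 bases before the RefSeq start. The RefSeq start of Atp5h lies inside the gene at the coordinates given further above, so its ETS letters fall within the gene as placed there.
Uqcrh: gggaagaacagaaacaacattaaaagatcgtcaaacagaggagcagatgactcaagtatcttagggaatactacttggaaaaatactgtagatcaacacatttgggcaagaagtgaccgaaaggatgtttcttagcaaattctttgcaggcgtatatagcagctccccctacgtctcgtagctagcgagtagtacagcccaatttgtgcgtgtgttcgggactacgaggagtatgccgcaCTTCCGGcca
Atp5h: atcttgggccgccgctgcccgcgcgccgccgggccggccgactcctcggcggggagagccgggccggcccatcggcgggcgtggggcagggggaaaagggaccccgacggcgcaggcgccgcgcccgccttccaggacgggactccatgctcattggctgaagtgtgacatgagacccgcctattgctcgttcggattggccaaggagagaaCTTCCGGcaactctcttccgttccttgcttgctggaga

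Annotated pseudogene copies of nuclear members were counted as well. A copy was found for 33 nuclear members, 51 copies in all, and 47 of them had at most 30 counts in every library. The other 4 were above 30 counts in some livers and at 6 or below in others. They are Gm6969 (a copy of Cox7a2l), Gm15920 (Ndufa12), BC002163 (Ndufs5) and Gm10250 (Atp5h). Gm6969 had 0 counts in WT control liver 2, 2 in WT MCT liver 1, 71 to 130 in the other WT livers and 128 to 250 in 3xTg livers. Summed with Cox7a2l, the pair was at 43.5, 41.9, 43.3 and 46.4 CPM in 3xTg KD livers and at 46.7, 56.2, 62.2 and 51.2 CPM in WT KD livers, still without overlap. Gm15920 was above 30 counts in 6 WT livers and in 0 of 12 3xTg livers.

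Ndufs5, a subunit of complex I, and BC002163 had counts that varied in opposite directions between livers. The Ndufs5 transcript matches BC002163 (chr16:42955631-42955949) in 317 of 319 bases. Both differences lie in the Ndufs5 exon at chr4:123715864-123716081, and they are T81C and A105G, counted from the first base of the Ndufs5 start codon with the Ndufs5 base first. The stretch that holds both, bases 61 to 125 of the coding sequence, is printed from the GENCODE transcripts on GRCm38 to show how little separates the pair (Ndufs5, chr4:123715955-123716019, minus strand; BC002163, chr16:42955691-42955755, plus strand); capitals mark the differences.
Ndufs5: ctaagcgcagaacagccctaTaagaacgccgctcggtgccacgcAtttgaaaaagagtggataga
BC002163: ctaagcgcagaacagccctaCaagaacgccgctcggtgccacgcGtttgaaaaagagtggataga

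In 14 livers BC002163 had 0 to 2 counts, and Ndufs5 was at 10.5 to 17.0 CPM. In the other 10 livers BC002163 had 73 to 218 counts, and Ndufs5 was lower, at 0.161 to 9.74 CPM. The sum of both stayed between 10.7 and 19.7 CPM in all 24 livers. Each group held 1 or 2 of the 10 livers. In WT KD livers 2 and 3 Ndufs5 had 4 and 2 counts and BC002163 had 162 and 218, which is the extreme of the range. Whether reads were assigned to the wrong copy, the copy is transcribed or the mice carry different alleles was not tested. With WT KD liver 3 as the only WT KD liver, as in the fit without pancreas-bearing libraries, this is the gene called higher in 3xTg livers.

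**Figure D5:**
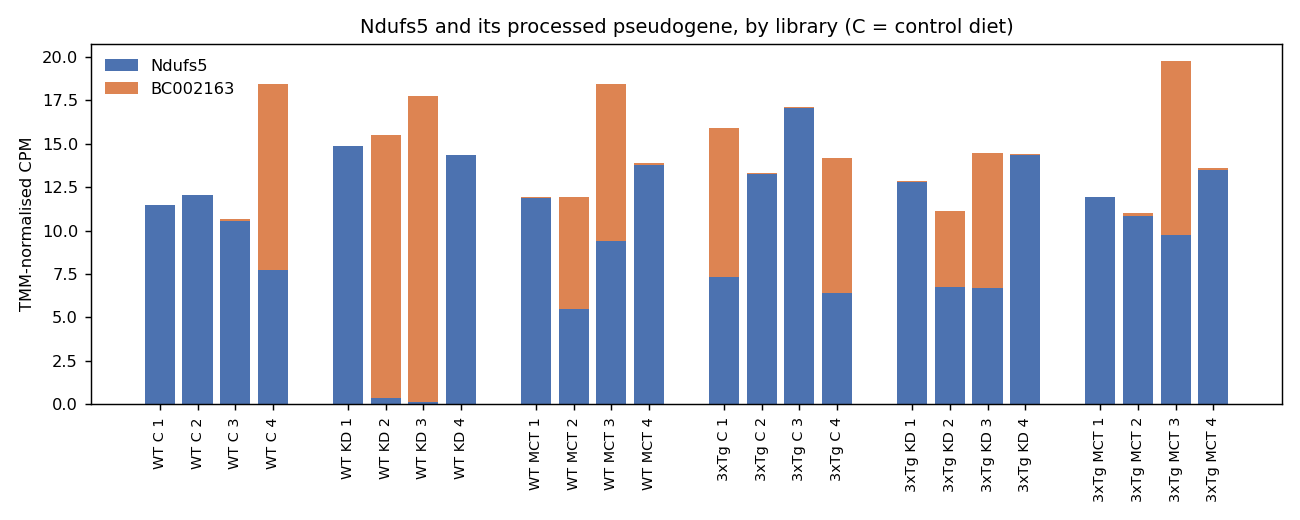
Stacked bars give the TMM-normalised CPM of Ndufs5 and of its copy BC002163 in each of the 24 livers, labelled by genotype, diet and replicate. In 14 livers nearly all of the sum is Ndufs5 (10.5 to 17.0 CPM), in 10 it is split or mostly BC002163, and the sum stays between 10.7 and 19.7 CPM.

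Nuclear members also varied with the replicate number in the sample names, across all groups. Number 4 had the highest nuclear share in 6 of 6 groups and the highest mitochondrial share in 0 of 6. Of the 90 tested nuclear members, 34 (37.8%) had their highest CPM in number 4 in 5 or 6 of the groups, as did 6.69% of all tested genes. For numbers 1, 2 and 3 the shares were 1.11%, 0% and 1.11% of members, beside 0.858%, 0.294% and 0.339% of all genes. Highest in number 4 in all 6 groups were 17 members, among them Cyc1 (cytochrome c1), Sdhb, Sdhc, Cox8a, Uqcrq, Atp5g1 and Ndufa13. Cyc1, for example, was at 129 CPM in 3xTg KD liver 4 and 75.03 to 101 CPM in the others of that group. The labels do not say what the number stands for. Each group holds 1 such liver, so the number is balanced over the comparisons with all livers. It is not balanced where livers are left out. Without the pancreas-bearing libraries, the WT KD and 3xTg MCT groups hold no number 4.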

How the data were processed

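PolyA RNA of 24 livers was sequenced, and the deposited values are whole-number gene counts, which the authors' table names as stranded; Trimmomatic, STAR and GRCm38 are named per the submitters' processing notes, and the use of the molecular identifiers in the adapters is not given in the sources used here. Rows that name no gene were left out. All 24 libraries entered edgeR 4.0.16 (R 4.3.3) with TMM scaling, a filter on low counts by group and the quasi-likelihood test; 11 comparisons were each adjusted by Benjamini-Hochberg over 13281 genes at 0.05. CPM are TMM-scaled, and RPKM use exon length. The procedure was tested on simulated data. Members, lists and the naming rule (members called in any comparison, the smallest p for KD, mitochondrial genes, a core gene per complex, isoform pairs) were chosen with earlier results of these data known. Alternatives were DESeq2 1.42.0, other scalings, no filter, a replicate block, groups alone and left-out libraries. For 3xTg against WT on MCT, same-numbered livers deviated together (r = 0.19, 0.28, 0.31 and 0.25 over genes, which are not independent); the pairing comes from this check only, and the block called no member there. Depth was 12009432 to 20108831 counts, and intervals cover the spread between mice. Promoter windows are RefSeq's; pseudogene sequences are GENCODE's.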

Additional observations from a re-analysis of the deposited data

Results flagged for a closer look

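In 282 checks of 4 livers each (45 members and 2 shares in 6 groups), 21 had 1 liver set apart from the other 3 by more than Dixon's 95% critical value for the gap as a share of the group's range. Chance flags about 1 in 20 such groups. None of these was given an explanation.

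In WT control livers, liver 4 had 93.0 CPM of Ndufb5 (others 88.2 to 88.7) and 168 CPM of Ndufv2 (146 to 147), and liver 1 had 0.469 CPM of Cox6a2 (0 to 0.0624). In WT KD livers, liver 4 had a mitochondrial share of 8.12% (12% to 12.2%), a nuclear share of 1.28% (0.948% to 0.977%) and 4170 CPM of mt-Nd4 rounded to 3 digits (9270 to 10300), and liver 1 had 50.7 CPM of Cox5b (61.3 to 63.4) and 57.3 CPM of Ndufv3 (84.4 to 85.9). In WT MCT livers, liver 4 had 117 CPM of Ndufb5 (88.7 to 92.8) and liver 3 had 102 CPM of Ndufa6 (134 to 136).

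In 3xTg control livers, liver 1 had 135 CPM of Atp5h (100 to 103). In 3xTg KD livers, liver 1 had 191 CPM of Ndufs1 (157 to 161), liver 2 had 5.75 CPM of Ndufb4 (3.95 to 4.12), and liver 4 had 2.83 CPM of Cox7a1 (0.706 to 0.899) and 1.07 CPM of Cox6a2 (0 to 0.0599). In 3xTg MCT livers, liver 3 had 45.6 CPM of Ndufb3 (47.9 to 48.3), 48.2 CPM of Ndufa12 (25.8 to 28.9), 18.6 CPM of Ndufb4 (5.76 to 7.62) and 123 CPM of Ndufv2 (167 to 170). Liver 4 of that group had 106 CPM of Ndufa8 (68.3 to 70) and 1.16 CPM of Ndufa4l2 (0.447 to 0.501).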

How the results depend on the processing

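With the median of all genes subtracted, no called member changed direction under the alternatives run. Uncalled medians near 0 did: without pancreas-bearing libraries the nuclear median went from 0.07 to -0.05 for MCT against control in 3xTg livers and from 0.02 to -0.13 for 3xTg against WT on MCT. For KD against control in 3xTg livers (8 members called), library size scaling alone gave 1 call, the replicate block 13, leaving out 3xTg KD livers 2 and 3 gave 0, and leaving out 1 liver gave 4 to 11; the lower values came without 3xTg control liver 1 or 2 (5 each) or KD liver 1 (5), 2 or 3 (4 each). For KD against MCT in 3xTg livers (28), the block gave 35, the groups of the contrast alone 10, leaving out pancreas-bearing libraries 4, leaving out KD livers 2 and 3 gave 1, and leaving out 1 liver gave 11 to 29. Library size scaling there called 11 members higher and 8 lower. No share of all genes is given for any count under library size scaling or the other alternatives. For 3xTg against WT on KD (21), no filter gave 13, the block 32, leaving out pancreas-bearing libraries 2, leaving out KD livers 2 and 3 gave 1, and leaving out 1 liver gave 9 to 23; library size scaling called 8 higher and 7 lower, without Uqcrh (adjusted p = 0.0951). For 3xTg against WT on the control diet (0), the block gave 1 (Cox7c). For the genotype difference in KD response (0), DESeq2 gave 6, the groups alone 3 (Atp5h, Ndufs6 and Ndufv3), and leaving out 1 liver gave 0 to 3, with 1 without WT control liver 1, 1 without WT KD liver 4 and 3 without 3xTg KD liver 4. The cause of these changes was not tested, except that left-out libraries leave fewer samples and unbalance the replicate numbers. The replicate numbers did not meet the pairing check except on MCT between genotypes, and in the 7 comparisons for which no block count is given it called no member. The legacy quasi-likelihood fit, added after seeing the data, called 7, 28 and 19 members where 8, 28 and 21 were called. Counts of at most 9 per library leave 6 mitochondrial messages without a usable level.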
